A study of Danio rerio with 6 samples.

Results

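The cadherins and unclustered protocadherins of zebrafish trunk neural crest and slow muscle were described in 47 of the 32520 genes of the deposited count table. They were chosen by symbol, as genes whose name begins with cdh or pcdh followed by a digit. The 34 genes with clustered protocadherin names and the vascular and kidney cadherin genes cdh5 and cdh17 were left out. The 47 entries carry 44 distinct symbols, because cdh23, pcdh11 and pcdh20 each occur under a pair of Ensembl identifiers. The table describes 3 of them, pcdh1a3, pcdh1a4 and pcdh1a6, as alpha protocadherins, so they are clustered genes that the symbol rule did not remove. Expressed members were those with 10 or more counts in 2 or more libraries. This held for 37 of the 47, and the same 37 passed the filter of the test.

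RNA came from wild-type embryos at 24 hours post fertilization, reared at 28 °C and carrying both the sox10:mRFP transgene, a neural crest reporter, and the prdm1a:eGFP transgene, a reporter of slow-twitch muscle and muscle pioneers. Trunk cells were sorted by these reporters, and 6 libraries formed 3 groups of 2, namely slow muscle without treatment, neural crest without treatment, and neural crest after exposure to 100 µM cyclopamine that began at 50% epiboly and lasted until collection. Cyclopamine blocks Smoothened, the transducer of Hedgehog signals, and no vehicle is stated for the untreated embryos. Each population is defined by its reporter alone, and the labels do not say how many embryos were pooled or whether replicates came from separate pools, so the p-values reflect the spread among these libraries alone, and that spread may be technical.

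Classical cadherins are calcium-dependent adhesion proteins whose outer repeats bind the same kind of cadherin on a neighbouring cell and whose cytoplasmic tail binds catenins, which connect them to actin. Type I members such as E-, N- and M-cadherin hold epithelia, neural tissue and muscle together, and type II members such as cadherins 6, 7 and 11 are known from neural crest and mesenchyme of several vertebrates. Neural crest cells alter their cadherins when they leave the neural tube, and in zebrafish N- and M-cadherin are known from the migration of slow muscle precursors through the myotome. The delta protocadherins are the larger unclustered protocadherin branch. They adhere weakly, lack the catenin-binding tail, and act with actin regulators and with N-cadherin.

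Libraries held between 15355583 and 26441238 counts, and between 13249 and 17275 genes had at least 1 count. Cyclopamine replicate 4 stood apart, with the fewest genes. The number of genes per count had a local peak at 97 counts in that library and at 35 to 45 counts in the other 5. Its correlation with cyclopamine replicate 3 over the tested genes was also lower (Spearman 0.81, against 0.914 and 0.912 within slow muscle and untreated crest). Levels are in CPM, the count scaled to the TMM-normalised library size. Where no read was counted, a level of 3 counts could have been missed by counting error alone, which is 0.127 to 0.178 CPM by library. The local peaks lie well above 3 counts, so a gene at 0 could have a higher level than this limit. Folds over the limit may then be too large. CPM is not divided by gene length, so levels are compared between libraries and not between genes. Of 13 tested muscle markers edgeR, whose calls are given here unless stated, called 7 higher and none lower in slow muscle, with a summed level of 39950 to 83620 CPM there against 511 to 522 CPM in untreated neural crest. Of 13 crest markers 12 were called lower, with 124 to 153 against 7983 to 8463 CPM. Both sorts also held transcripts of other trunk tissues. The slow muscle libraries had a summed level of 10490 to 14540 CPM over 16 epidermal markers (1176 to 1456 CPM in untreated neural crest; 1 called higher), 2247 to 2436 CPM over 14 endothelial markers (326 to 356 CPM; 3 called higher) and 647 to 664 CPM over 9 pronephric markers (45.1 to 51.6 CPM; 3 of 8 tested called higher). DESeq2 called 8 epidermal, 10 endothelial and 3 pronephric markers higher and none lower, against 11.5% of all genes called higher. Every epidermal and endothelial marker was detected in both slow muscle libraries, while wt1a of the pronephric list was at 0 in both. Neural progenitor markers summed to 80.3 to 191 CPM in slow muscle and 126 to 144 CPM in untreated crest (edgeR called none of 13 and DESeq2 1 lower), and neuronal markers to 178 to 294 and 474 to 503 CPM (edgeR called 1 of 12 lower and DESeq2 2). In bulk RNA, fewer cells of a type and less RNA per cell cannot be told apart.

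The sorted populations differed in which members made up the family. All members together reached 1965 and 2175 CPM in the slow muscle libraries, 1560 and 1543 CPM in untreated crest, and 2127 and 1714 CPM in cyclopamine crest. Type I cadherins held 74.0% and 65.2% of the member counts in slow muscle, 22.2% and 23.4% in untreated crest, and 27.9% and 25.4% in cyclopamine crest. Delta-2 protocadherins held 5.12% and 9.10% in slow muscle against 39.1% and 33.4% in untreated crest and 31.5% and 37.7% in cyclopamine crest. Type II cadherins held 4.95% and 7.28% in slow muscle, 23.7% and 26.5% in untreated crest, and 26.3% and 19.7% in cyclopamine crest. The delta-1 share was 8.80% and 9.28% in slow muscle and 12.9% to 15.4% in the 4 crest libraries. In each of these 4 classes the slow muscle libraries did not overlap the crest libraries. Untreated and cyclopamine crest overlapped in the delta-1, delta-2 and type II shares, while the type I share was higher in both treated libraries. These are shares of counts, to which long genes give more, and they carry no test.

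**Figure D1:**
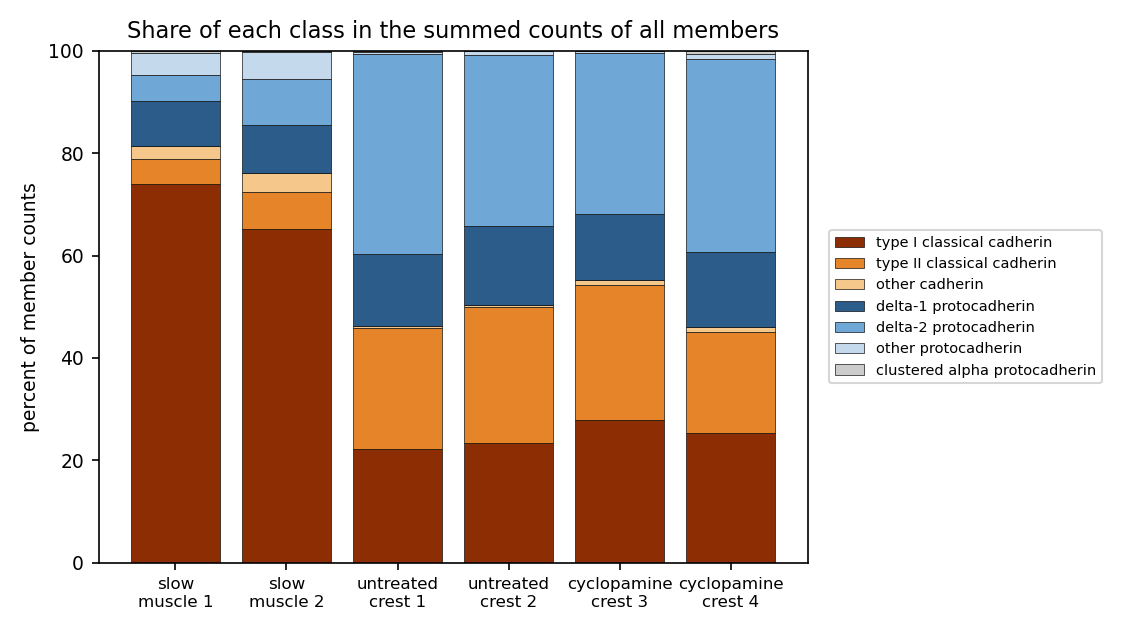
Each bar is 1 library and each colour the percent of all member counts held by 1 class. Type I cadherins take 65.2% to 74.0% in slow muscle and 22.2% to 27.9% in the 4 crest libraries, where delta-2 protocadherins and type II cadherins take most of the rest.

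The first comparison set slow muscle against untreated neural crest and asked which adhesion genes differ between the sorted populations. In edgeR's quasi-likelihood test over 17701 genes, 2 of the 37 tested members were called (adjusted p below 0.05), the N-cadherin gene cdh2 higher and the delta-1 protocadherin gene pcdh9 lower in slow muscle. Over all genes 2.55% were called, 1.67% higher and 0.876% lower, so 1 member in each direction is near the background. DESeq2 called 9 members higher and 6 lower of 29 with an adjusted p, against 17.0% of all genes (11.5% higher and 5.54% lower). edgeR fitted to the 4 compared libraries alone called 6 higher and 4 lower of 30, against 14.2% of all genes in that fit (9.64% higher and 4.56% lower). The 2 groups did not overlap for 28 of 37 members, 19 higher and 9 lower in slow muscle, beside 61.0% of all tested genes (33.6% higher and 27.3% lower). Over the 37 the median log2 fold change was 1.49, with 23 above and 13 below 0, beside a median of 0.08 over all genes tested. A member that passed the filter through the group where it is high had to differ, so these counts describe the list and support nothing by themselves.

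**Figure D2:**
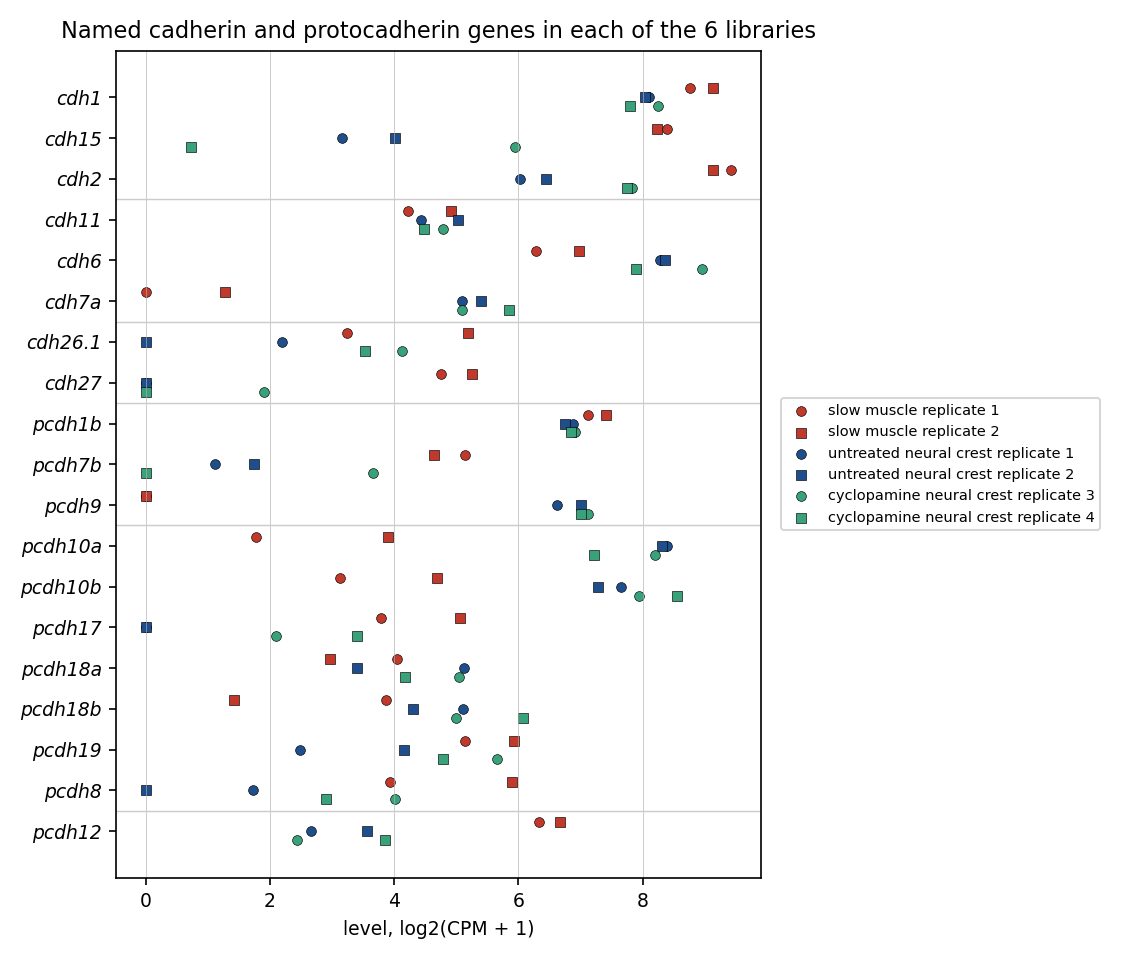
Level of each of the 19 members with at least 20 CPM in some group, as log2(CPM + 1), in every library, with classes separated by lines from type I at the top to other protocadherins at the bottom. cdh1, cdh2, cdh15, cdh27, pcdh1b, pcdh7b, pcdh12 and pcdh17 are higher in both slow muscle libraries than in all crest libraries. cdh6, cdh7a, pcdh9, pcdh10a, pcdh10b and pcdh18b are lower, and both slow muscle points of pcdh9 lie on 0.

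Among type I cadherins, cdh2 (ENSDARG00000018693), which encodes N-cadherin, the adhesion protein of neural tissue and early muscle, stood at 687 and 560 CPM in slow muscle, at 64.3 and 85.7 CPM in untreated crest, and at 227 and 215 CPM in cyclopamine crest. The 3 groups did not overlap. It rose in slow muscle over untreated crest by 3.06 ± 0.33 on the log2 scale (SE, n = 2 libraries per group; edgeR adjusted p = 0.0177). The call was lost without untreated replicate 1 (edgeR adjusted p = 0.123) or untreated replicate 2 (0.0978) and held in the other 11 alternatives.

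cdh15 (ENSDARG00000068191), which encodes M-cadherin of muscle cells, stood at 333 and 298 CPM in slow muscle and at 7.91 and 15.1 CPM in untreated crest. Cyclopamine replicate 3 had 60.3 CPM and replicate 4 had 0.658 CPM, so the treated pair spanned the untreated one. The slow muscle excess over untreated crest, 4.78 ± 1.76 on the log2 scale, was not called in edgeR (adjusted p = 0.222), and was called in DESeq2 (adjusted p = 0.00250). With one library left out the log2 fold change ranged from 4.37 to 5.31. Of these fits edgeR called cdh15 only in those without a cyclopamine library, where calls over all genes also rose.

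cdh1 (ENSDARG00000102750), which encodes E-cadherin of epithelia, was found in every library, at 433 and 557 CPM in slow muscle, 274 and 261 CPM in untreated crest and 303 and 220 CPM in cyclopamine crest. Slow muscle lay above untreated crest by 0.89 ± 0.32 on the log2 scale, which edgeR did not call (adjusted p = 0.210) and DESeq2 did (0.0266). Of the fits with one library left out, edgeR called cdh1 only in those without a cyclopamine library. The epidermal markers moved with it, with the sums given above, and their part in this difference was not tested. The ratio of cdh2 to cdh1 counts within a library was 1.59 and 1.005 in slow muscle, 0.235 and 0.329 in untreated crest, and 0.750 and 0.977 in cyclopamine crest, with no overlap between the groups. The remaining type I gene, cdh4 (R-cadherin, known from the retina), had counts in slow muscle replicate 2 and cyclopamine replicate 3 alone, at 2.197 and 3.67 CPM.

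**Figure D3:**
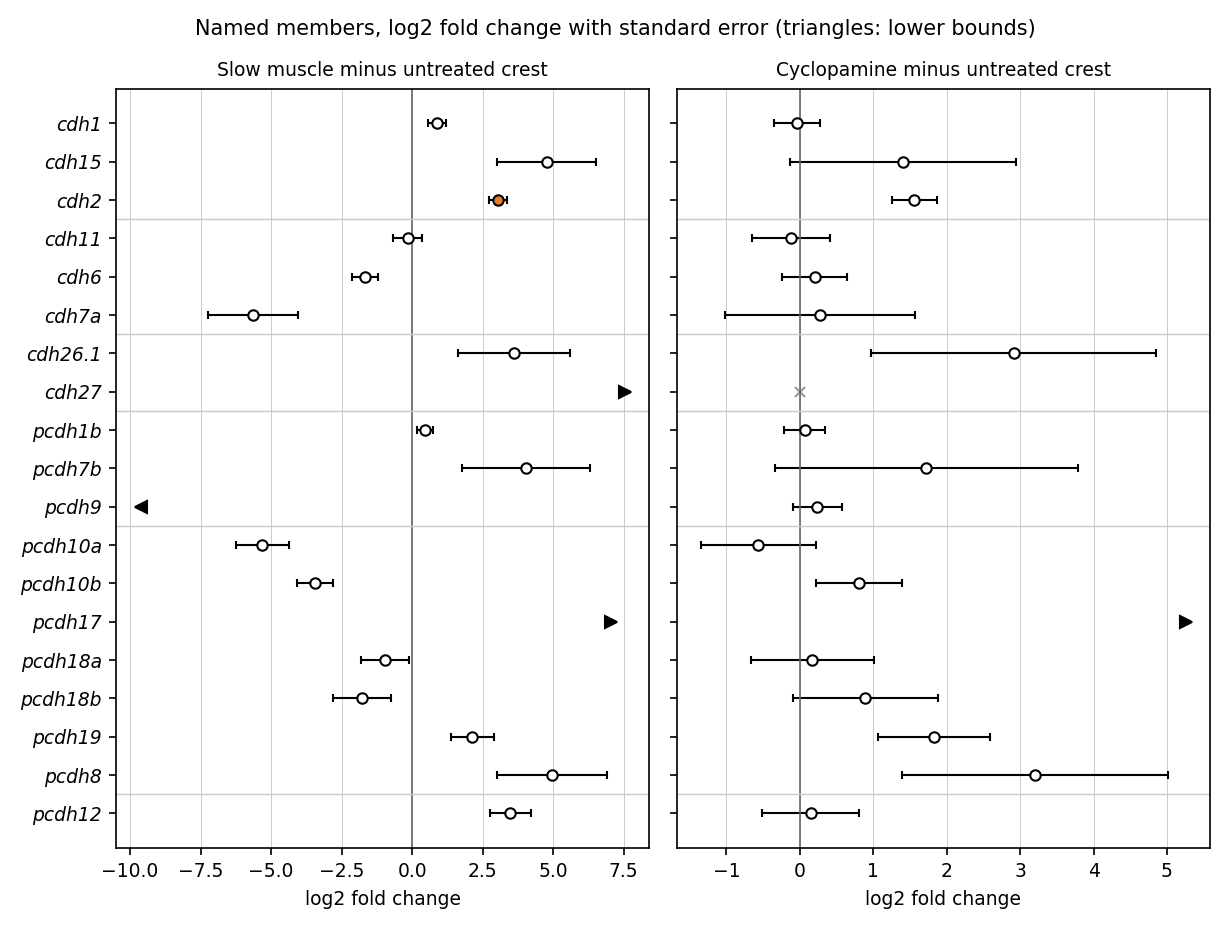
Log2 fold change of the 19 named members in slow muscle (left) and cyclopamine-treated crest (right) over untreated crest, with edgeR's standard error. Filled points passed the adjusted threshold, and the cross marks cdh27, for which no fold is given. Triangles mark genes at 0 in both libraries of one group. They are lower bounds only with respect to the limit of 3 counts. cdh2 is the filled point, at 3.06, and pcdh9, which also passed, is the leftmost triangle.

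Among type II cadherins, cdh6 and cdh7a stood higher in crest. cdh7a (ENSDARG00000023542), whose chick relative marks migrating neural crest, had 0 and 34 counts in slow muscle, or 0 and 1.44 CPM. In untreated crest it stood at 33.1 and 41.2 CPM and in cyclopamine crest at 33.2 and 56.5 CPM. The log2 fold change of slow muscle over untreated crest was -5.66 ± 1.60 (edgeR adjusted p = 0.138, DESeq2 adjusted p = 0.000747). It was -12.52 without slow muscle replicate 2, which held all the slow muscle counts, and -4.73 without replicate 1. edgeR called it without slow muscle replicate 2 or either cyclopamine library. Its duplicate cdh7b was at 0 in all libraries.

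cdh6 (ENSDARG00000014522), a type II cadherin known from premigratory crest in birds and from kidney, stood at 77.1 and 124 CPM in slow muscle, 309 and 329 CPM in untreated crest, and 495 and 237 CPM in cyclopamine crest. Both slow muscle libraries lay below all crest libraries. The log2 fold change over untreated crest was -1.66 ± 0.46, not called in edgeR (adjusted p = 0.132) and called in DESeq2 (0.0105). Of the fits with one library left out, edgeR called cdh6 only in those without a cyclopamine library.

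cdh11 (ENSDARG00000021442), a mesenchymal cadherin that in frogs takes part in crest migration, did not separate the groups. It stood at 17.6 and 29.2 CPM in slow muscle, 20.6 and 31.6 CPM in untreated crest and 26.7 and 21.4 CPM in cyclopamine crest (log2 fold change of slow muscle over untreated crest -0.16 ± 0.53, edgeR adjusted p = 0.941). Its sign turned without slow muscle replicate 1 (0.11) or untreated replicate 2 (0.18). cdh10a, cdh18a and cdh24a stayed below 10 CPM in every group mean, and cdh12a, cdh22 and cdh24b were at 0 throughout. Of the 6 tested type II genes 5 had a fitted log2 fold change below 0, beside 8380 of all 17701 genes. edgeR called none. The groups did not overlap for 3 that were lower in slow muscle and 1 that was higher, beside 27.3% and 33.6% of all tested genes. Low counts underlie cdh10a among the lower ones (0 and 34 in slow muscle against 82 and 138 in untreated crest). The same holds for the higher one, cdh18a (49 and 55 against 33 and 0). One of the 5, cdh24a, had 25 counts in untreated replicate 1 and none in untreated replicate 2 or slow muscle.

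Delta-2 protocadherins went both ways. pcdh10a (ENSDARG00000099729) and pcdh10b (ENSDARG00000102824) are duplicates of a gene whose mouse product links adhesion sites to the WAVE actin regulators. pcdh10a stood at 2.43 and 13.9 CPM in slow muscle, 336 and 316 CPM in untreated crest and 294 and 147 CPM in cyclopamine crest. pcdh10b stood at 7.70 and 24.9 CPM in slow muscle, 199.9 and 155 CPM in untreated crest and 245 and 374 CPM in cyclopamine crest. Both genes were lower in slow muscle than in every crest library. The log2 fold changes of slow muscle over untreated crest, -5.31 ± 0.94 and -3.44 ± 0.64, lay just outside the threshold (edgeR adjusted p = 0.0513 and 0.0554) and passed in DESeq2 (1.84e-09 and 6.46e-06). edgeR called pcdh10a in each fit that left out a slow muscle or cyclopamine library. It called pcdh10b in those without slow muscle replicate 2 or either cyclopamine library. Neither was called without an untreated library.

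pcdh17 (ENSDARG00000027041), whose mouse relative acts in axon growth, had 0 counts in both untreated crest libraries. Slow muscle held 12.8 and 32.2 CPM, with a mean 134-fold the limit of 3 counts per untreated library. Its edgeR adjusted p was 0.0537 and its DESeq2 adjusted p 2.07e-07. Of the fits with one library left out, edgeR called pcdh17 only in those without a cyclopamine library.

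pcdh8 (ENSDARG00000006467), the paraxial protocadherin of segmenting mesoderm, stood at 14.2 and 58.3 CPM in slow muscle, 2.32 and 0 CPM in untreated crest and 15.1 and 6.43 CPM in cyclopamine crest. pcdh19 (ENSDARG00000034344), which pairs with N-cadherin in zebrafish neural tube formation, stood at 34.4 and 60.1 CPM in slow muscle, 4.59 and 16.9 CPM in untreated crest and 49.6 and 26.6 CPM in cyclopamine crest. Untreated crest was the lowest group for both, and slow muscle and cyclopamine crest overlapped. For slow muscle over untreated crest edgeR called neither (adjusted p = 0.248 and 0.215), and DESeq2 called pcdh8 (0.0199) and not pcdh19 (0.0521). With one library left out, the log2 fold change ranged from 3.60 to 12.55 for pcdh8, which had no counts in untreated replicate 2, and from 1.47 to 3.37 for pcdh19.

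The duplicates pcdh18a (ENSDARG00000089805) and pcdh18b (ENSDARG00000052494) varied widely within groups. pcdh18a stood at 15.5 and 6.84 CPM in slow muscle, 33.9 and 9.58 CPM in untreated crest and 31.9 and 17.1 CPM in cyclopamine crest. Untreated crest overlapped both other groups, and slow muscle lay below both cyclopamine libraries. pcdh18b stood at 13.6 and 1.69 CPM in slow muscle, 33.4 and 18.8 CPM in untreated crest and 30.9 and 66.0 CPM in cyclopamine crest, with slow muscle below both crest groups. edgeR called neither (adjusted p = 0.593 and 0.387), and nor did DESeq2 (0.660 and 0.325). The sign of pcdh18a turned without untreated replicate 1 (0.20), and the log2 fold change of pcdh18b ranged from -3.98 to -0.96 with one library left out.

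Among delta-1 protocadherins, pcdh9 (ENSDARG00000063264) had 0 counts in both slow muscle libraries. It stood at 97.8 and 127 CPM in untreated crest and at 138 and 128 CPM in cyclopamine crest. The untreated crest mean was 789-fold the limit of 3 counts per slow muscle library. The gene fell in slow muscle (edgeR adjusted p = 0.0119) and was called in all 13 alternatives, with an adjusted p of at most 0.0299. pcdh1b (ENSDARG00000036175), whose frog relative is the axial protocadherin of the notochord, stood at 138 and 169 CPM in slow muscle, 117 and 106 CPM in untreated crest and 120 and 114 CPM in cyclopamine crest. Slow muscle lay above both crest groups by a small margin (log2 fold change over untreated crest 0.46 ± 0.28, edgeR adjusted p = 0.422), while its duplicate pcdh1a did not reach 1 CPM in any library.

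pcdh7b (ENSDARG00000060610), a relative of the frog NF-protocadherin of skin and axons, stood at 34.2 and 24.0 CPM in slow muscle and 1.16 and 2.37 CPM in untreated crest. Cyclopamine replicate 3 had 11.6 CPM and replicate 4 had 0. It was not called (edgeR adjusted p = 0.375, DESeq2 0.141). Of the fits with one library left out, edgeR called pcdh7b only in those without a cyclopamine library. Its duplicate pcdh7a stood at 1.16 and 8.58 CPM in slow muscle against 0 and 0.118 CPM in untreated crest, and 1 pcdh11 entry (ENSDARG00000098652) at 0 in slow muscle against 2.53 and 1.95 CPM. DESeq2 called pcdh7a higher (adjusted p = 0.0256) and that pcdh11 entry lower (0.0141), and edgeR called neither (0.295 and 0.201).

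Outside these classes, pcdh12 (ENSDARG00000076594), whose mouse relative is a protocadherin of vascular endothelium, stood at 79.5 and 101 CPM in slow muscle, 5.32 and 10.8 CPM in untreated crest and 4.44 and 13.5 CPM in cyclopamine crest. Slow muscle exceeded all crest libraries, by 3.48 ± 0.72 on the log2 scale over untreated crest (edgeR adjusted p = 0.0713, DESeq2 0.000168). Of the fits with one library left out, edgeR called pcdh12 only in those without a cyclopamine library. The endothelial markers moved the same way, at 2247 and 2436 CPM in slow muscle against 356 and 326 CPM in untreated crest, 175 CPM in cyclopamine replicate 3 and 345 CPM in replicate 4. Their part in the pcdh12 level was not tested.

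cdh27 (ENSDARG00000055093) stood at 25.95 and 37.1 CPM in slow muscle and at 0 counts in both untreated crest libraries and in cyclopamine replicate 4, with 2.76 CPM in cyclopamine replicate 3. The slow muscle mean was 188-fold the limit of 3 counts per untreated library (edgeR adjusted p = 0.152, DESeq2 0.000105). Of the fits with one library left out, edgeR called cdh27 only in those without a cyclopamine library. cdh26.1 (ENSDARG00000078404) stood at 8.44 and 35.6 CPM in slow muscle, 3.58 and 0 CPM in untreated crest and 16.5 and 10.6 CPM in cyclopamine crest. Neither tool called it (edgeR adjusted p = 0.371, DESeq2 0.154), and its log2 fold change over untreated crest ranged from 2.22 to 11.83 with one library left out. Low levels were seen in slow muscle alone or nearly so for cdh13, a cadherin anchored in the membrane by lipid (6.65 and 2.28 CPM), cdh16, the kidney-specific cadherin of mammals (2.48 and 1.56 CPM), and pcdh15b, a tip-link protein gene of hair cells (3.38 and 1.69 CPM). Each had 0 counts in untreated crest. cdh16 had 47 and 37 counts in slow muscle and pcdh15b 64 and 40, near the local peaks of 45 and 37 counts in those libraries. At such levels 0 counts do not show that a gene is absent from crest. edgeR called none of the 3, and DESeq2 called cdh13 (adjusted p = 0.0399). The pronephric markers, with the sums given above, moved the same way, and their part in the cdh16 level was not tested.

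The other expressed members were low. In all, 18 of the 37 expressed members had a highest group mean between 0.580 and 9.32 CPM. Of the 10 members outside the test, cdh7b, cdh12a, cdh22 and cdh24b were at 0 in all 6 libraries. The remaining 6, namely cdh28, cdh29, cdh31, pcdh1a6 and the second entries of cdh23 and pcdh20, reached 10 counts in a single library each. The alpha genes pcdh1a3 and pcdh1a4 stayed at or below 5.68 CPM in every library.

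Several members are neighbours in the genome, by the gene order of RefSeq's GRCz12tu assembly, in which all 47 were placed by gene number or symbol. cdh6, cdh10a, cdh12a and cdh18a lie in a row without other protein-coding genes, and cdh6 alone of these 4 passed 20 CPM. pcdh10a adjoins pcdh18a, and pcdh10b lies 1 protein-coding gene from pcdh18b. Within these pairs pcdh10a and pcdh10b separated slow muscle from every crest library and so did pcdh18b, by a smaller margin, while pcdh18a did not. The ratio of pcdh10a to pcdh10b counts within a library was 0.315 and 0.560 in slow muscle and 1.68 and 2.04 in untreated crest, without overlap, and 1.20 and 0.393 in cyclopamine crest. Counts of close duplicates, including the tandem genes cdh26.1 and cdh26.2, are uncertain, because how reads that match several genes were assigned is unknown here.

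Cyclopamine-treated crest was compared with untreated crest to ask which adhesion genes differ after the exposure. The treated libraries are numbered 3 and 4 and the untreated ones 1 and 2. Treatment and any difference between these sample sets therefore cannot be told apart. cdh2 and pcdh17 were higher in both treated libraries than in both untreated ones. Of the 6 members with a mean above 100 CPM in untreated crest, pcdh9 and pcdh10b lay higher without overlap, pcdh10a lay lower, and cdh1, cdh6 and pcdh1b overlapped. edgeR called 0 of the 37 members and 0 of 17701 genes (0.00%), with an unadjusted p under 0.05 for 2 members and for 767 genes (4.33%). DESeq2 called 2 of 31 members, both higher, cdh2 and pcdh17, against 1.89% of all genes (0.961% higher and 0.930% lower). The groups did not overlap for 12 of 37 members, 10 higher and 2 lower in treated crest, beside 31.2% of all tested genes (14.6% higher and 16.6% lower). The median log2 fold change of the members was 0.89 beside 0.00 over all genes, and 0.80 with genes at 0 in one group set to the limit of 3 counts. Members at 0 in both untreated libraries passed the filter through another group and could not lie lower in treated crest. These counts and medians therefore describe the list and support nothing by themselves. The untreated libraries serve both comparisons, so the comparisons are not independent.

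For cdh2 the treated libraries stood at 227 and 215 CPM against 64.3 and 85.7 CPM. The difference was 1.56 ± 0.31 on the log2 scale (edgeR adjusted p = 0.751, DESeq2 0.000928). It was 1.53 without cyclopamine replicate 3 and 1.60 without replicate 4. The muscle markers summed to 1299 CPM in cyclopamine replicate 3 and 480 CPM in replicate 4 against 522 and 511 CPM in untreated crest. Neural progenitor markers summed to 220 and 109 CPM in the treated libraries and 144 and 126 CPM in the untreated ones. Neuronal markers summed to 668 and 469 CPM against 503 and 474 CPM. DESeq2 called 1 muscle marker higher and 1 lower, and none of 13 progenitor or 12 neuronal markers, beside 1.89% of all genes. At that share, no call in lists this short says little. The muscle transcription factor gene mef2d was higher in both treated libraries, at 153 and 90.2 CPM against 43.3 and 46.3 CPM (DESeq2 adjusted p = 0.00720), and the slow myosin gene smyhc1 was lower. The part of muscle RNA in the cdh2 level was not tested.

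pcdh17 stood at 3.26 and 9.53 CPM in the treated libraries, or 72 and 203 counts, against 0 counts in both untreated ones. The treated mean was 38.1-fold the limit of 3 counts per untreated library (edgeR adjusted p = 0.778, DESeq2 0.000267). These counts lie not far above the local peaks of 41 and 97 counts in the same libraries. The fitted log2 fold change was 10.58 without cyclopamine replicate 3 and 9.04 without replicate 4. With untreated crest at 0 counts, the size of these folds is not determined.

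pcdh19, pcdh8 and cdh26.1 were likewise higher in both treated than in both untreated libraries, with log2 fold changes of 1.83 ± 0.76, 3.20 ± 1.81 and 2.91 ± 1.94, and none passed (edgeR adjusted p = 0.835 for each; DESeq2 0.437, 0.552 and 0.684). Without cyclopamine replicate 4 the values were 2.21, 3.69 and 3.19, and without replicate 3 they were 1.32, 2.47 and 2.57. Untreated libraries moved them more: over all single libraries left out they ranged from 1.15 to 3.04, from 2.2 to 10.78 and from 1.91 to 11.11, the highest for pcdh8 and cdh26.1 being without untreated replicate 1, which leaves an untreated library at 0. pcdh9, pcdh10b, pcdh7a, pcdh1a and 1 pcdh11 entry also lay higher without overlap. On the log2 scale the difference was 0.24 ± 0.34 for pcdh9 and 0.80 ± 0.58 for pcdh10b (0.29 and 0.47 without cyclopamine replicate 4, 0.19 and 1.09 without replicate 3). For pcdh9 the nearest treated and untreated libraries had 127.8 and 127.1 CPM. Counts were low for pcdh7a (29 and 70 against 0 and 2), pcdh1a (15 and 20 against 0 and 0) and the pcdh11 entry (66 and 67 against 48 and 33). The local peaks in the treated libraries lay at 41 and 97 counts. pcdh10a and cdh30 were the 2 that lay lower without overlap. cdh30 had only 0 and 9 counts against 14 and 46. pcdh10a stood at 294 and 147 against 336 and 316 CPM (log2 fold change -0.56 ± 0.78). It was -0.15 without cyclopamine replicate 4 and -1.14 without replicate 3.

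For cdh15 and pcdh7b the treated libraries lay on opposite sides of the untreated ones. cdh15 moved from a log2 fold change of 1.41 ± 1.54 to 2.39 without cyclopamine replicate 4 and to -4.10 without replicate 3. pcdh7b likewise went from 1.72 ± 2.06 to 2.72 and to -8.14, the last with the remaining treated library at 0. Replicate 3, which was high for both, also had the larger sum of muscle markers, 1299 against 480 CPM. Its epidermal sum was larger as well, 2237 against 811 CPM, and its endothelial sum smaller, 175 against 345 CPM. Among the muscle markers was actc1b, a skeletal muscle actin gene. It had 8618 counts in replicate 3 and 78 in replicate 4, against 1574 and 1734 in untreated crest. The slow myosin gene smyhc1 had 21 and 0 counts in the treated libraries against 894 and 997 in the untreated ones (DESeq2 adjusted p = 4.99e-09). Of the other slow muscle genes at 0 in both treated libraries, smyhc3 was at or near 0 in both untreated ones. In untreated crest smyhc2 had 0 and 110 counts and tnnc1b 24 and 0. Whether muscle or epidermal RNA contributed to the cdh15 and pcdh7b levels was not tested. The levels of cdh1, cdh6, cdh7a, cdh11, pcdh1b, pcdh12, pcdh18a and pcdh18b overlapped between treated and untreated crest (edgeR adjusted p = 1 for each).

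**Figure D4:**
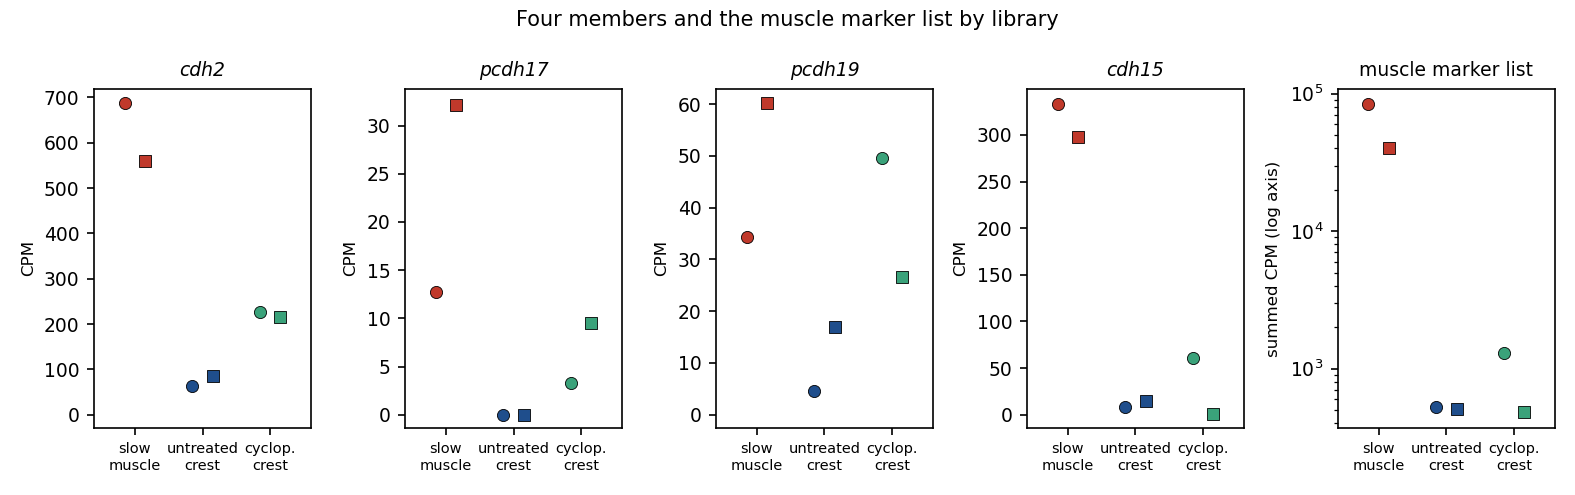
CPM of cdh2, pcdh17, pcdh19 and cdh15, and the summed CPM of the muscle markers on a log axis, in each library (circles, the lower replicate number of a group; squares, the higher one). cdh2 is at 215 and 227 CPM in both cyclopamine libraries, above both untreated ones, while cdh15 and the muscle markers are high in cyclopamine replicate 3 and not in replicate 4.

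Partners of the cadherins were examined as lists of symbols, to be read beside the shares over all genes. In slow muscle over untreated crest edgeR called 1.67% of all genes higher and 0.876% lower. DESeq2 called 11.5% higher and 5.54% lower. No list was tested as a set. Of 19 tested catenins and relatives edgeR called 2 higher in slow muscle than in untreated crest and none lower, and DESeq2 called 7 higher. The edgeR calls were arvcfb, a p120-type catenin gene (455 and 328 CPM against 25.3 and 51.8 CPM; edgeR adjusted p = 0.0491), and pkp4, a plakophilin-related gene (242 and 169 against 25.0 and 29.9 CPM; 0.0227). The beta-catenin gene ctnnb1, which joins cadherin tails to alpha-catenin, stood at 936 and 1061 CPM in slow muscle and 1335 and 1100 CPM in untreated crest (0.720), without overlap. The alpha-catenin gene ctnna1 stood at 319 and 317 against 348 and 358 CPM (0.897).

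Of 22 tested junction linkers and nectins edgeR called 1 higher and DESeq2 7 higher and 1 lower. The edgeR call was actn1, which encodes the actin cross-linker alpha-actinin 1 (134 and 246 against 29.6 and 19.7 CPM; edgeR adjusted p = 0.0401). Of 15 large cadherin relatives edgeR called 1 higher and DESeq2 3. The edgeR call was the Fat-type cadherin gene fat2 (56.4 and 91.4 against 8.22 and 6.39 CPM; 0.0328). Of 12 desmosomal genes edgeR called none and DESeq2 5 higher, with dspa, a desmoplakin gene, at 197 and 219 against 92.8 and 56.6 CPM (edgeR adjusted p = 0.357) and jupa, the plakoglobin gene, which the catenin list also holds, at 323 and 439 against 140 and 109 CPM (edgeR 0.0843, DESeq2 0.00174). The epidermal markers, with the sums given above, were higher in the same libraries, and their part in the levels of these junction genes was not tested.

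Of 25 tested cadherin repressors and transition factors edgeR called 2 lower in slow muscle and none higher, and DESeq2 called 3 higher and 3 lower. The zinc finger repressor gene zeb2a stood at 50.5 and 77.3 CPM in slow muscle against 1491 and 1301 CPM in untreated crest (edgeR adjusted p = 0.0136), and foxd3, a crest regulator, at 6.75 and 5.45 against 220 and 170 CPM (0.0132). snai1b, which encodes a Snail repressor of E-cadherin, stood at 189 and 156 against 185 and 194 CPM (0.957). Of 18 sheddases and processing enzymes edgeR called none, and DESeq2 2 higher and 2 lower, with adam10a, a cadherin-cleaving protease gene, at 223 and 256 against 278 and 223 CPM (0.959) and mmp14b at 119 and 150 against 221 and 233 CPM (0.253). Of 18 trafficking genes edgeR called none, and DESeq2 2 higher and 1 lower, with ptprfb, a receptor phosphatase gene, at 639 and 755 against 270 and 257 CPM (edgeR 0.212, DESeq2 0.0477) and ap2m1a, a clathrin adaptor gene, at 251 and 303 against 279.5 and 307.5 CPM (0.946). Of 19 actin regulators that work with delta protocadherins edgeR called none and DESeq2 1 higher, with cyfip1 at 206 and 260 against 239 and 242 CPM (0.983) and nckap1 at 163 and 212 against 198 and 186 CPM (0.987).

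In the cyclopamine comparison DESeq2 called 1.89% of all genes and edgeR none. Of the partner lists edgeR called no gene and DESeq2 called 1, celsr1a, a planar polarity cadherin gene. It stood at 54.5 and 145 CPM in treated crest against 15.3 and 29.1 CPM in untreated crest (DESeq2 adjusted p = 0.0495, edgeR adjusted p = 0.835). Cyclopamine replicate 4 had the highest sum of all libraries for the large relatives, at 1878 CPM. Replicate 3 had 766 CPM and untreated crest 579 and 645 CPM. This was not particular to that list. Replicate 4 was also highest for catenins (3674 CPM), junction linkers (2541), repressors (3816), sheddases (1205) and actin regulators (2323). It was not highest for desmosomal genes (828 CPM) or trafficking genes (1961 CPM).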

How the data were processed

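The authors deposited whole-number counts of reads per Ensembl gene. Per the submitters' processing notes the tools included STAR, Subread with featureCounts, and DESeq2, with no version. The build, the annotation and how reads matching several genes were counted are not given in the sources. A deposited table of log2 values was not used. Titles of untreated crest libraries include slow-twitch, but their tissue field gives neural crest, and the tissue field was used. The table held 0 other per-library columns.

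edgeR 4.0.16 in R 4.3.3 (quasi-likelihood, TMM, filterByExpr with minimum count 10 and total 15) was fitted to all 6 libraries with 3 groups over 17701 genes, with Benjamini-Hochberg adjustment over all of them. The common dispersion was 1.132. Levels are mean CPM of 2 libraries or single values, and standard errors derive from the test statistic. DESeq2 1.42.0 was an alternative. The procedure was also run on counts simulated from the fitted dispersions, with changes placed only in genes of higher mean level. That run does not cover members with low counts, and no result here rests on it.

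Members and 15 lists (270 symbols, 24 not matched) were chosen with earlier results of these data known. The named members were those called or with at least 20 CPM in a group. From each partner list the called genes, otherwise the 2 most abundant by mean CPM over the 6 libraries, were named, and ctnnb1, ctnna1, snai1b, celsr1a, actc1b, smyhc1, mef2d, cdh4 and the marker genes at 0 were chosen after their values were seen, as were cdh13, cdh16, pcdh15b, pcdh7a and pcdh11. No sequences or coordinates were used.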

Additional observations from a re-analysis of the deposited data

How the results depend on the processing

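The number of members called in slow muscle over untreated crest, 2 in all, was 4 with upper quartile scaling, 9 without a filter on low counts, 4 with a filter of 50 counts in 2 libraries, 15 with DESeq2, 10 in the fit of only the 4 libraries compared, and 1 to 12 with one library left out. Over all genes, 451 calls became 1408 without the filter, 2727 with DESeq2, 2368 in the 4 libraries, 242 with the replicate number as a block, and 108 to 3013 with one library left out. The most came from leaving out either cyclopamine library and the fewest from leaving out either untreated library. Members that edgeR called without a cyclopamine library share this rise over all genes, so those calls are not separate support. The cause was not tested. With upper quartile scaling 266 genes were higher and 242 lower, against 296 and 155, and the median log2 fold change over all genes moved from 0.08 to -0.158 (0.164 with RLE).

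The main fit did not pair libraries by replicate number. Deviations of slow muscle and untreated crest libraries with the same number were close to uncorrelated across genes (r = 0.0106). This cannot tell whether libraries of one number came from the same embryos, which the labels do not say. With the replicate block 3 members were called, cdh2, pcdh9 and pcdh10a.

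For cyclopamine the 0 members called became 2 with DESeq2 and 0 to 4 with one library left out, and the 0 genes became 21 without the filter, 311 with DESeq2 and 0 to 1366 with one library left out. The lone remaining library is then assumed to vary like the other groups. The most calls came from leaving out cyclopamine replicate 3, for members and for all genes alike, so those member calls are not separate support. Of 247 alternative values for the 19 named members in slow muscle, 3 turned sign, and of 226 under cyclopamine 12 did. All 15 came from leaving out one library. With one library left out, the log2 fold change of slow muscle over untreated crest ranged from -0.59 to 0.18 for cdh11 and from -1.71 to 0.20 for pcdh18a. That of cyclopamine over untreated crest ranged from -0.27 to 0.18 for cdh1, -0.41 to 0.21 for cdh11, -4.10 to 2.39 for cdh15, -0.41 to 0.63 for cdh6, -0.16 to 0.61 for cdh7a, -0.86 to 0.75 for pcdh12, -0.48 to 1.33 for pcdh18a, -0.01 to 0.12 for pcdh1b and -8.14 to 2.72 for pcdh7b. cdh27 gave no cyclopamine value without replicate 3, since both groups were at 0. Low counts and 2 libraries per group limit all of these values.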
